A study of Mus musculus with 16 samples.

Results

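The RUNX factors Runx1, Runx2 and Runx3, their shared partner Cbfb and the ETO corepressors Runx1t1, Cbfa2t2 and Cbfa2t3 were examined in the differential chromatin accessibility of mouse small cell lung cancer (SCLC) cells. Accessibility was measured by ATAC-seq, in which a transposase cuts and tags open DNA so that open stretches appear as peaks of reads. Each peak went to whichever protein-coding gene had the annotated start of transcription closest to the peak's centre, at any distance, and the peaks that went to these 7 genes were counted. This rule took 121 of the 80367 differential peaks. The peaks come as a pair of lists, here called opened (higher signal in GFPhigh cells, 40828 peaks) and closed (lower signal in GFPhigh cells, 39539 peaks), and 50.8% of all listed peaks were opened. The 7 genes held 51 opened and 70 closed peaks, so that 42.1% of their peaks were opened. This share depends on the choices made. The share was 58.0% for peaks in a gene body or within 10 kb of it, where the share over all protein-coding genes was 54.2%, and it was 56.5% without Runx1t1 and 24.4% without Runx1. With a limit of 100 kb from the start it was 49.3% against 55.7%.

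All samples came from mice with floxed Rb, p53 and p130 alleles and 1 GFP reporter allele at Hes1 (TKO;Hes1GFP/+). Tumors were started in the lung with an adenovirus carrying Cre under the CMV promoter, which is active in many cell types. GFPhigh (Hes1-GFP positive) cells are the non-neuroendocrine (non-NE) cells in which the Notch target Hes1 is active, GFPneg (Hes1-GFP negative) cells are the neuroendocrine (NE) cells of the same tumors, and both carry the 3 deletions and the reporter. The 16 sequencing runs were 8 libraries on 2 lanes, 4 libraries in each group, from 3 mice of which 1 gave a technical replicate. Young adult mice of both sexes received the virus and tumors were taken months later, pooled by mouse, and sorted. The sort removed cells positive for CD45, CD31 or TER-119 and kept CD24 positive cells. Used here were the position of each peak, the list it is on and 1 read level, the authors' mean normalized count over all libraries. The columns of the authors' own comparison were not used. The lists hold no value per library, so nothing below has an SD or a test of its own, and a difference in the number of open cells cannot be told apart from a difference in openness per cell.

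RUNX proteins bind DNA through the Runt domain, and CBFβ, encoded by Cbfb, binds no DNA itself but stabilizes that contact. RUNX1 is best known from blood formation, RUNX2 from bone and RUNX3 from T cells and sensory neurons, and all members of the family can act as activators or repressors. Each Runx gene has a distal and a proximal promoter that start different protein forms. The ETO proteins bind no specific DNA sequence and bring histone deacetylases and other corepressors to transcription factors. The families meet in leukemia, where translocations join RUNX1 to RUNX1T1 or to CBFA2T3.

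The difference between the families in the direction of their listed peaks came from 1 gene in each. Runx1, Runx2, Runx3 and Cbfb together held 42 opened and 28 closed peaks (60.0% opened), and the 3 ETO genes held 9 opened and 42 closed (17.6% opened), against 50.8% for all listed peaks. Without Runx1 the RUNX genes and Cbfb held 10 opened and 17 closed peaks (37.0% opened), and without Runx1t1 the ETO genes held 6 and 9 (40% opened). Under the 10 kb body rule the same genes other than Runx1 held 9 opened and 5 closed peaks, and those other than Runx1t1 held 9 and 7, so these directions turn with the assignment. In neither family did all genes go one way by nearest start. Runx1 had 32 opened and 11 closed peaks and Runx3 had 4 and 1, whereas Runx2 had 5 opened and 14 closed and Cbfb had 1 and 2. Runx1t1 had 3 opened and 33 closed peaks, Cbfa2t3 had 4 and 8, and Cbfa2t2 had 2 and 1. Under the body rule the counts were 6 opened and 2 closed for Runx2, 0 and 1 for Runx3, 3 and 2 for Cbfb, 7 and 5 for Cbfa2t3 and 2 and 2 for Cbfa2t2, while Runx1 (22 and 3) and Runx1t1 (0 and 14) kept their direction. By nearest start, Runx1 alone held 32 of the 51 opened peaks and Runx1t1 alone 33 of the 70 closed peaks.

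**Figure D1:**
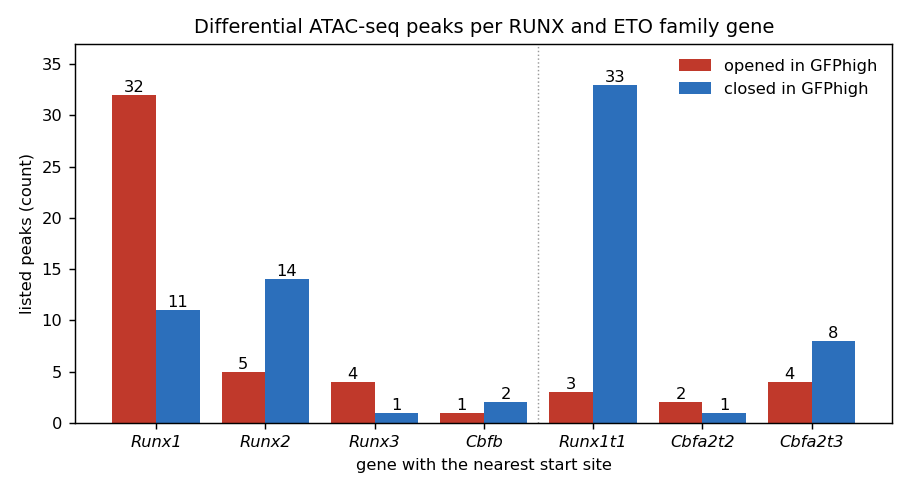
Number of listed peaks (y axis, count) nearest to a start site of each gene (x axis), opened in GFPhigh cells in red and closed in blue, with RUNX genes and Cbfb left of the dotted line and ETO genes right of it. Runx1 has 32 opened and 11 closed peaks and Runx1t1 has 3 opened and 33 closed.

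The DNA before the start sites shows how unlike the paired promoters of a gene were. The 250 bases before each RefSeq start (assembly GRCm38.p6, strand of the gene, 5′ to 3′) are given for Runx1 and Cbfa2t3, whose promoters differed in their peaks, and for the distal promoters of Runx2 and Runx3, which hold the RUNX core. RefSeq had 9 such stretches for 6 of the 7 genes. Capitals mark the RUNX core TGTGGT on either strand, read as ACCACA on the other.
Runx1 distal, chr16:92826075-92826324, minus strand: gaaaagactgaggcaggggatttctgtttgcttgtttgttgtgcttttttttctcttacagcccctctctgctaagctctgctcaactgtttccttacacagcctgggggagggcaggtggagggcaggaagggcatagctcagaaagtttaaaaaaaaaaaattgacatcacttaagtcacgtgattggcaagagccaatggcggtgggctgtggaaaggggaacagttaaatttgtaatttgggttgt
Runx1 proximal, chr16:92697330-92697579, minus strand: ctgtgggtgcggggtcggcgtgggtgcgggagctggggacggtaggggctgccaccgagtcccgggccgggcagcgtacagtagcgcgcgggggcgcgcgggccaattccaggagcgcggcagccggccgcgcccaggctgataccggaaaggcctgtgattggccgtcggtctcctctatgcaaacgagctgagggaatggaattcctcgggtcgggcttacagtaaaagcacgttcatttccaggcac
Cbfa2t3 distal, chr8:122699110-122699359, minus strand: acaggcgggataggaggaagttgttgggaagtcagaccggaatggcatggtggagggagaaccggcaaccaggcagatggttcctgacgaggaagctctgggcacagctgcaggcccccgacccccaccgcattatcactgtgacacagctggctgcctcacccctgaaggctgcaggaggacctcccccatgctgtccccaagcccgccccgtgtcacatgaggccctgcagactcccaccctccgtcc
Cbfa2t3 proximal, chr8:122678176-122678425, minus strand: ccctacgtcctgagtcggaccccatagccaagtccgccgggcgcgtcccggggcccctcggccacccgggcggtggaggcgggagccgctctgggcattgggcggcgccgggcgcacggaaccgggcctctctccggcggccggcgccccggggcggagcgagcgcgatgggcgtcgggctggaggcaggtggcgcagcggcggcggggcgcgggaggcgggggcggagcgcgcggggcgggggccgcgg
Runx2 distal, chr17:44814628-44814877, minus strand: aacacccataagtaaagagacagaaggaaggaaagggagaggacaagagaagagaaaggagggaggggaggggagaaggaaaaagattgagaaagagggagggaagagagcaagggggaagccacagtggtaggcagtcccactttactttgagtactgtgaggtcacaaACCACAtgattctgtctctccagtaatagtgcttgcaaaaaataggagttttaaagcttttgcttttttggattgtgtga
Runx3 distal, chr4:135120395-135120644, plus strand: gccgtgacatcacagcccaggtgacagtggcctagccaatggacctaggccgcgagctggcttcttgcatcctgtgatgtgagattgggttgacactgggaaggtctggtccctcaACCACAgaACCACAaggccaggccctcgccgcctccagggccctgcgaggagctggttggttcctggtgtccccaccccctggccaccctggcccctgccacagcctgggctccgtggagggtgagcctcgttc
The distal Runx1 stretch was 45.6% G and C with 2 CpG pairs, and the proximal one 67.6% with 27. The distal Cbfa2t3 stretch was 64.0% G and C with 9 CpG pairs, and the proximal one 83.2% with 43. Over all 32851 RefSeq promoters of this length the medians were 52.4% and 6 CpG pairs. For both genes, chosen because their promoters differed in peaks, the proximal promoter carried the opened peak. This order did not extend to the other Runx genes. The Runx3 proximal stretch (78.8% G and C, 38 CpG pairs) had no listed peak and the Runx2 distal stretch had an opened one. The distal stretches of Runx2 (44.8% G and C, no CpG pair) and Runx3 (65.2%, 8 CpG pairs) held the core 1 and 2 times. None of the other RefSeq stretches of these genes held it. Of all RefSeq promoters of this length, 14.0% held it at least 1 time. A match of letters is a description and not a measured binding site.

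Across the 7 genes, 16 start sites were distinguished after starts within 500 bp were joined. A listed peak lay within 1 kb of 8 of them, opened at 5 sites and closed at 3. Over all 21924 protein-coding genes, 5657 had opened promoter peaks only, 1685 closed ones only and 161 both. These are counts of genes and not of start sites. By gene, Runx1, Runx2, Cbfb and Cbfa2t2 had opened promoter peaks only, Runx1t1 closed ones only, Cbfa2t3 both and Runx3 none. The opened sites were the Runx1 proximal, Runx2 distal, Cbfb, Cbfa2t2 and Cbfa2t3 proximal starts, and the closed sites were the outermost Runx1t1 start, the next Runx1t1 start and the Cbfa2t3 distal start. The other 8 sites, among them both Runx3 promoters and the distal Runx1 promoter, had no listed peak. A site without a listed peak may be open alike in both groups, or in neither.

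Runx1 carried the most opened peaks of the 7 genes and ranked 9th by that number among the 14580 protein-coding genes with a listed peak. The gene lies at chr16:92601466-92826149 on the minus strand (GENCODE M21, mm10). The stretch of genome nearest to its start sites is 618 kb, which held 5.18 opened and 1.78 closed peaks per 100 kb, against 1.54 and 1.49 over the whole genome. Among the 2349 genes with at least 10 listed peaks, 27.1% had 70% or more of them opened, as Runx1 did with 74.4%. This limit was set with the value of Runx1 in view.

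At the distal Runx1 start (chr16:92826149), which makes the long protein form, no peak was listed. At the proximal start, 129 kb downstream, an opened peak (chr16:92697222-92697807, 586 bp) had a mean normalized count of 386. A further opened peak of 987 bp in the intron 8.8 kb past that start (chr16:92686871-92687857) had 390 and was the highest of the gene. In read level they were above 95.4% and 95.5% of all opened peaks. Between the distal and proximal starts lay 7 opened peaks and no closed one, with counts from 8.53 to 76.7. Past the proximal start lay 14 opened peaks, from 12.6 to 390, and 3 closed ones.

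Of the 3 closed peaks in the body of Runx1, the highest (chr16:92632124-92632670, intronic) had a count of 203, above 97.7% of all closed peaks. The others had 57.7 and 26.7. The closed peak of 203 lay between opened peaks of 45.3 and 12.6 on either side, so the direction changed within the intron region rather than at an end of the gene. A pair of opened peaks with counts of 143 and 45.1 lay within 1 kb of the start of Gm26626, an antisense transcript inside Runx1. Reads at those peaks cannot be assigned to either gene by position.

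Upstream of Runx1 the directions were mixed. The 10 opened peaks lay 78.1 to 313 kb before the distal start and the 8 closed ones 38.3 to 342 kb before it. The highest upstream peak was opened (chr16:92903834-92904577, 744 bp, 304) and stood alone between a group of 3 closed peaks on the gene's side and a group of 4 beyond it. The 4 closed peaks had counts of 6.10, 38.0, 71.8 and 30.9. From 157 to 313 kb before the start followed a run of 9 opened peaks, from 11.2 to 92.8, with no closed peak among them. In all, 8 opened peaks of Runx1 and 1 closed peak were above a count of 100.

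**Figure D2:**
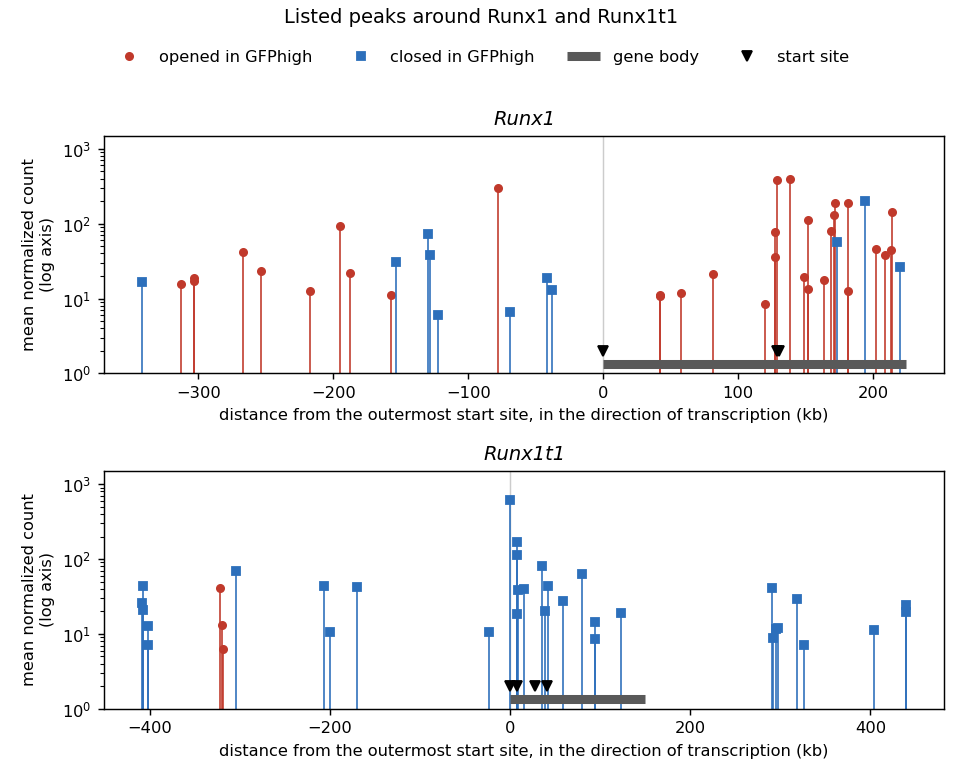
Each listed peak is a stem at its distance in kb from the outermost start site (x axis, positive in the direction of transcription) with its mean normalized count on a log axis (y axis), red for opened and blue for closed in GFPhigh cells, the grey bar the gene body and the triangles the start sites. Runx1 shows opened peaks between and past its start sites and a mixed upstream stretch, and Runx1t1 shows closed peaks throughout apart from 3 opened ones 319 to 322 kb upstream.

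Runx2, the regulator of bone and cartilage genes, had mostly closed peaks by nearest start, which came from upstream of the gene. Within 10 kb of its body it had 6 opened and 2 closed peaks. It lies at chr17:44495987-44814797 on the minus strand and had 5 opened and 14 closed peaks (26.3% opened). Its distal start carried an opened peak of 57.2 (chr17:44814608-44815162), and its 2 proximal start sites carried none. The highest opened peak, 70.6 (chr17:44709919-44710269), lay within 1 kb of the start of Runx2os2, an antisense transcript inside the gene. The other 3 opened peaks had counts of 9.60, 10.7 and 19.9. The body also held 2 closed peaks, 27.3 and 9.35.

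The other 12 closed peaks of Runx2 lay upstream, 45.3 to 304 kb before the distal start, with no opened peak among them. All 12 were inside the body of the neighboring gene Supt3, a transcription coactivator subunit that overlaps the Runx2 distal promoter. Their counts ran from 4.24 to 95.1 with a median of 12.9. The highest were chr17:45020176-45020543 (95.1) and chr17:45032289-45032746 (92.6), and the remaining 10 were at most 32.8. The promoter of Runx2 and the stretch upstream of it therefore stood on opposite lists.

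Runx3, at chr4:135120652-135177990 on the plus strand, had 5 listed peaks and none within 1 kb of its distal or proximal start. The opened peaks lay 75.4, 66.1 and 53.3 kb upstream, with counts of 66.7, 49.9 and 17.1, and past the end of the gene, with 42.2. The single closed peak, in an intron, had a count of 7.03, above only 2.64% of all closed peaks in read level. Of the 4 opened peaks, 2 held the RUNX string TGTGGTT in the central 200 bp, against 7.75% of all opened peaks. With 4 peaks this share is a small count. The central 200 bases of the 2 are shown (GRCm38.p6, plus strand, core in capitals).
Runx3, 75.4 kb upstream, chr4:135045197-135045396: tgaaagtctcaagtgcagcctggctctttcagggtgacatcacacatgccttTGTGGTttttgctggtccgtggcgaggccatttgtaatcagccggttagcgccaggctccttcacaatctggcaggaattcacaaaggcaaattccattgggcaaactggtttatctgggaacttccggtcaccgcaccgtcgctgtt
Runx3, 66.1 kb upstream, chr4:135054476-135054675: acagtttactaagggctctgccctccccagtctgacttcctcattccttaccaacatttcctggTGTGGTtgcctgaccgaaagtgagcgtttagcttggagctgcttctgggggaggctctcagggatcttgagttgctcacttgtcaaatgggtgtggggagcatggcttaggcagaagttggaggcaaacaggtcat
These were the opened peaks of Runx3 with the highest counts.

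Cbfb, at chr8:105170674-105217989 on the plus strand, had 3 listed peaks of similar level. The opened peak (chr8:105171393-105171667) lay 585 bp past a start site and had a count of 93.6. The closed peaks lay 17.5 kb upstream (96.6) and in an intron (62.3). The gene for the common partner thus had listed peaks in both directions, with the opened one at its promoter.

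Runx1t1 (ETO) was the ETO gene with the most listed peaks and nearly all were closed. It lies at chr4:13743436-13893649 on the plus strand. Its 33 closed peaks placed it 47th by that number among all genes with a listed peak. Over an 878 kb stretch it had 3.76 closed and 0.34 opened peaks per 100 kb. Cbfa2t3 (9.21) and Cbfb (4.27) had more closed peaks per 100 kb, over shorter stretches of 86.9 and 46.8 kb. Among the genes with at least 10 listed peaks, 18.0% had 90% or more of them closed, as Runx1t1 did, a limit set with its value in view.

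The outermost Runx1t1 start carried a closed peak of 1179 bp (chr4:13742757-13743935) with a count of 611, above 99.9% of all closed peaks in read level and the highest closed peak of the 7 genes. Around the next start, 7861 bp downstream, lay 3 closed peaks with counts of 171, 113 and 18.7. The remaining 2 start sites had no listed peak within 1 kb. The body held 13 closed peaks and no opened one, from 8.68 to 171 with a median of 38.5. The 9 peaks past the gene were also all closed, from 7.07 to 40.6, and lay 291 to 440 kb from the outermost start. Upstream lay 11 closed peaks and the 3 opened ones, which had counts of 41.3, 13.3 and 6.27 and sat together within 3.1 kb, 319 to 322 kb before the start. The nearest listed peaks on either side of that cluster were closed, with counts of 7.17 and 70.3.

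Cbfa2t3 (ETO2, MTG16), the member best known from blood progenitors, differed between its promoters. It lies at chr8:122625141-122699109 on the minus strand. The distal start carried a closed peak (chr8:122698440-122698726, 27.6), and the proximal start, 21 kb downstream, an opened peak of 934 bp (chr8:122677970-122678903, 351). Within 10 kb of the body it had 7 opened and 5 closed peaks, which turns the direction of the 4 and 8 counted by nearest start. All 4 opened peaks counted by nearest start lay at or past the proximal start, with counts of 351, 154, 37.4 and 18.1. The 8 closed peaks had counts from 10.1 to 29.5. Upstream of the gene lay 5 of them, from 10.1 to 24.1. The other 3 were in the body: the one at the distal start, 1 of 27.5 that lay 2.1 kb before the proximal start, and 1 of 29.5 in an intron past the opened peaks. The upstream stretch is inside Gm20388, a read-through gene model that spans the locus.

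**Figure D3:**
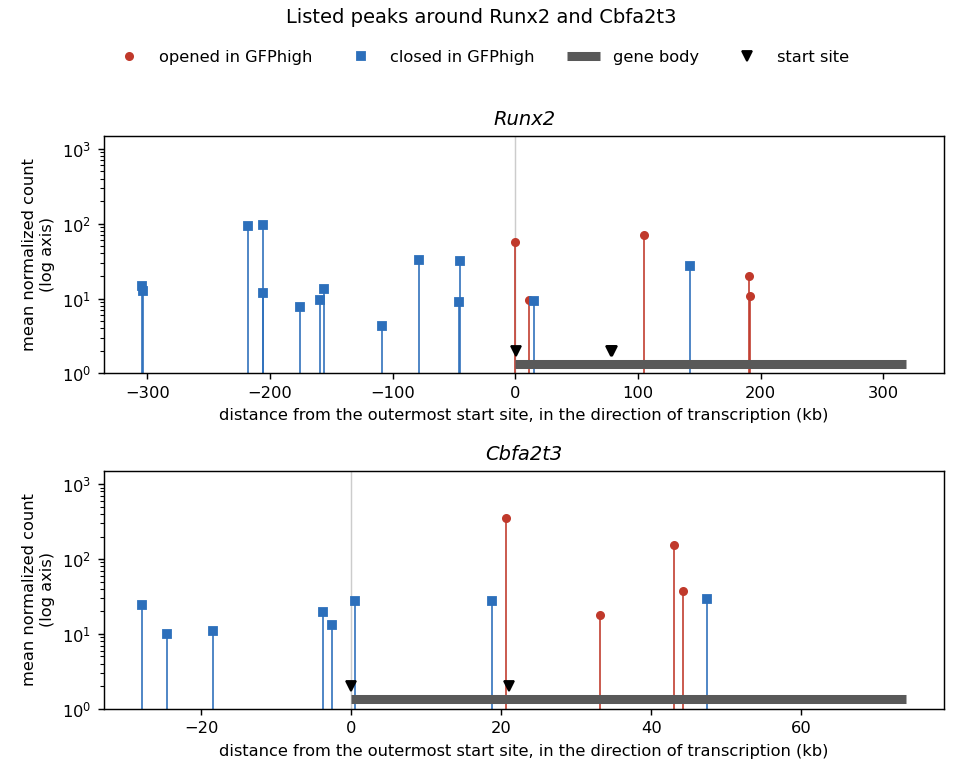
Listed peaks around Runx2 and Cbfa2t3 by distance in kb from the outermost start site (x axis, positive in the direction of transcription) and mean normalized count (y axis, log axis), red for opened and blue for closed in GFPhigh cells, with the gene body as a grey bar and start sites as triangles. Upstream of Runx2 lie 12 closed peaks, and Cbfa2t3 has its opened peaks at and past the proximal start (351 the highest) and closed ones upstream.

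Cbfa2t2 (MTGR1), at chr2:154436481-154539356 on the plus strand, had the highest peak of all 7 genes. This opened peak at its promoter (chr2:154436104-154436945, 842 bp) had a count of 688, above 99.1% of all opened peaks. The other opened peak, 9.6 kb upstream, had 12.7, and the closed peak in an intron had 30.6. The promoter peaks of the 3 ETO genes thus stood on both lists, with 688 (Cbfa2t2) and 351 (Cbfa2t3) opened and 611 (Runx1t1) closed.

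**Figure D4:**
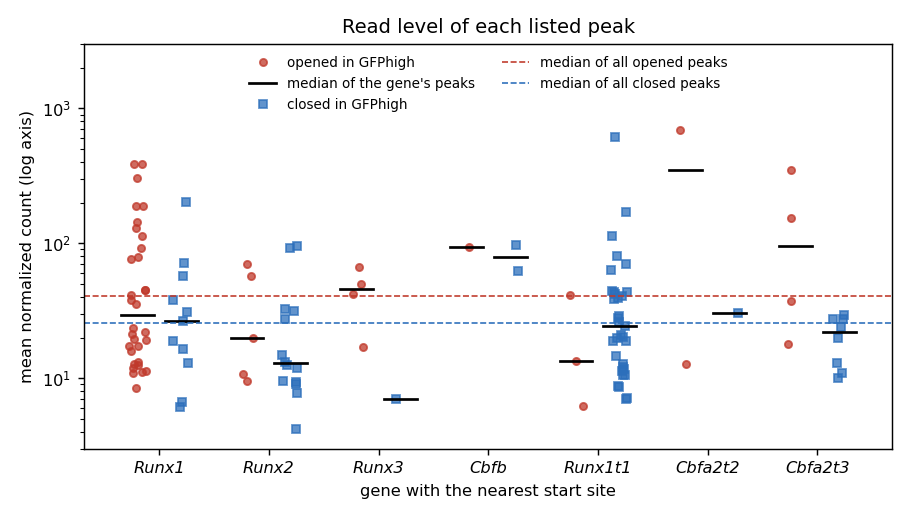
Mean normalized count of each listed peak (y axis, log axis) by gene (x axis), opened in red and closed in blue, with black bars at the median of each gene's peaks and dashed lines at the medians of all opened (40.7) and all closed (25.8) peaks. The highest points are the promoter peaks of Cbfa2t2 (688) and Runx1t1 (611).

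In read level, width and base composition the peaks of the 7 genes were near those of all listed peaks. The median count was 37.4 for their opened peaks against 40.7 for all opened peaks, and 22.4 against 25.8 for closed peaks. The median width was 302 against 300 bp and 228 against 248 bp, and the median G and C content 50.3% against 51.1% and 47.8% against 48.9%. As a pool they lay farther from a start site, which held for Runx1, Runx2 and Runx1t1 and for the opened peaks of Runx3 and not for the other genes. The median distance was 47.0 kb for the opened peaks against 17.5 kb for all opened peaks, and 73.9 kb against 42.4 kb for the closed ones. The closed peaks of Runx1t1 had a median of 200.4 kb and those of Cbfa2t3 of 11.1 kb. More than 100 kb from a start lay 14 opened peaks (27.5%, against 13.5% of all) and 32 closed peaks (45.7%, against 28.9%). Within 1 kb of a start of any gene lay 15.7% of the opened peaks, against 22.3% of all opened peaks, and 7.14% of the closed ones, against 9.68%. At distances over 100 kb a peak's nearest start site need not be that of the gene it acts on.

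Few of the peaks held a RUNX string. The letters TGTGGTT or their reverse complement lay in the central 200 bp of 5 opened peaks (9.80%, against 7.75% of all opened peaks) and of 2 closed peaks (2.86%, against 3.24%). Which side of the background these shares fell on changed with the search. Over the whole peak the string lay in 13.7% of the opened peaks (11.6% of all) and 8.57% of the closed ones (5.05% of all), and the shorter TGTGGT lay in the central 200 bp of 15.7% (18.1%) and 7.14% (12.6%). The carriers were 2 peaks of Runx3 and 1 each of Runx1, Runx1t1 and Cbfa2t3 among the opened peaks, and 1 each of Runx1t1 and Cbfa2t3 among the closed ones. The opened Cbfa2t3 carrier, an intronic peak with a count of 37.4, is shown as the only opened one inside an ETO gene body (GRCm38.p6, plus strand, core in capitals).
Cbfa2t3, 23.2 kb past the proximal start, chr8:122654817-122655016: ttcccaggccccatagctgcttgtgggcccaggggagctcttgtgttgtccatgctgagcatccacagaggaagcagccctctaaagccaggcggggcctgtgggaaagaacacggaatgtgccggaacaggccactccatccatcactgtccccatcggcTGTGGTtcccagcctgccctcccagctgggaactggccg
Other strings searched on both strands were also near the background. The RBPJ string TGGGAA, the site of the DNA-binding partner of Notch, lay in 23.5% of the opened peaks (19.0% of all opened peaks) and 11.4% of the closed ones (14.6%). The AP-1 string TGANTCA lay in 13.7% (10.1%) and 20% (25.4%), and the E-box CAGCTG in 15.7% (11.2%) and 17.1% (21.3%). The TEAD string GGAATG was found in 17.6% (17.0%) and 8.57% (7.76%), the FOX string TGTTTAC in 5.88% (6.47%) and 8.57% (9.17%), and the ETS string GGAAGT in 15.7% (17.9%) and 10% (11.7%).

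The genes that RUNX factors and ETO proteins work with, and known RUNX targets, were counted in the same way. Over all genes with a listed peak the median opened share of a gene was 66.7%. It was 67.7% over RUNX cofactors, 75.3% over ETO partners and 100% over RUNX targets. The last median gives equal weight to genes with few peaks, such as Csf1r, Itgae, Mpo and Elane with 1 opened and 0 closed each. A listed peak was present at 66.5% of all protein-coding genes. Of 26 RUNX cofactors, 24 had a listed peak, 16 had more opened than closed peaks and 6 more closed, with 173 opened and 111 closed peaks in all (60.9% opened). Over all genes with a listed peak, 54.9% had more opened and 37.5% more closed peaks. Tle3, a Groucho corepressor, had 27 opened and 5 closed peaks, Smad3, which carries TGF-beta signals, 17 and 0, and Wwtr1 (TAZ), a YAP-related coactivator, 11 and 0. The related Tle1 (7 and 16) and Tle4 (17 and 24) had more closed peaks, as did Ets1 (9 and 20), which binds DNA beside RUNX1. A promoter peak was opened in 16 of the 26 genes and closed in 0, where promoter peaks of all genes were also mostly opened (5657 genes against 1685). The same counts were 11 opened and 3 closed for the ETO partners and 6 and 3 for the RUNX targets described next.

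Of 23 partners of the ETO proteins, 22 had a listed peak, 14 with more opened and 6 with more closed peaks (118 opened, 86 closed, 57.8% opened). The corepressor genes Spen and Ncor1 had 9 and 2 opened peaks, with 0 closed in both. The E protein gene Tcf4 had 3 opened and 28 closed peaks with a closed promoter peak, while its relatives Tcf3 (4 and 0) and Tcf12 (8 and 6) had opened promoter peaks. Lmo2 (0 and 11) and Gfi1 (0 and 5), blood regulators that work with Cbfa2t3, had closed promoter peaks. Others of that kind went the other way, with Ldb1 at 6 and 0 and Gfi1b at 2 and 1, both with an opened promoter peak, and Lyl1 at 3 and 0. Tal1 had 0 opened and 1 closed peak and Gata1 1 and 0, neither at a promoter. Rbpj, the partner of Notch, had 9 of each.

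Of 26 genes known as RUNX targets in other tissues, 21 had a listed peak, with 104 opened and 29 closed peaks (78.2% opened), 15 genes with more opened and 4 with more closed peaks. Of the 104 opened peaks Vegfa held 30, with no closed one, and Bcl2l11 (BIM) 18, with 4 closed. Zbtb7b had 11 opened and 0 closed peaks, and Csf2 8 and 0. The bone targets of Runx2 did not share one direction, with Mmp13 at 0 opened and 5 closed, Spp1 at 0 and 2, and Col10a1 at 0 and 3. Alpl had 8 and 1 and Sp7 3 and 1, while Ibsp and Bglap had no listed peak. Their promoter peaks were closed at Mmp13 and Sp7 and opened at Alpl.

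The labels of the 2 cell groups were set against marker genes. Of 10 NE markers, 7 had more closed peaks and 8 a closed promoter peak, for instance Insm1 (0 opened, 28 closed) and Calca (0 and 4). Chga had more opened peaks (8 and 6) beside its closed promoter peak, and Syp and Dll3 had no listed peak. Of 6 club cell markers, 5 had more opened peaks and 5 an opened promoter peak, for instance Scgb1a1 (12 and 3). Because Runx1 and Cbfa2t3 are also genes of blood and vessels, markers of the sorted-out cells were counted as well. Of 14 leukocyte markers, 9 had a listed peak, near the share over all genes (66.5%), with 17 opened and 12 closed peaks (58.6% opened, against 50.8%). The CD45 gene Ptprc had 11 opened and 5 closed but none at a promoter, Cd68 had an opened promoter peak and Coro1a a closed one, and Itgam, Adgre1 and Tyrobp were among those with no listed peak. The 8 endothelial markers had 19 opened and 54 closed peaks, of which Cdh5 had 2 and 23. Promoter peaks were opened at Kdr (7 and 11) and closed at Tek (2 and 4) and Erg (1 and 9). Tie1 (3 and 0) and Cldn5 (3 and 2) had more opened peaks. Of 8 fibroblast markers, 5 had a listed peak, 4 with more closed peaks and Col1a1 with 7 opened and 0 closed, for 10 opened and 15 closed peaks in all. Their promoter peaks were opened at 1 gene and closed at 2. The part of such cells in the peaks of the 7 genes was not tested.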

How the data were processed

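ATAC-seq libraries were made from sorted cells and sequenced from both ends. The authors aligned reads to mm10 with Bowtie2 2.3.4.1, removed duplicates, called peaks with MACS2, merged them, counted reads per peak and compared the groups with DESeq2 1.28.1, with limits of 0.001 on the adjusted p and 1 on the size of the log2 difference. The deposited signal is their mean normalized count per peak over all libraries (2.84 to 1808), a pooled value with no spread, and read depth per library was not analysed here. Columns of the authors' fold change, standard error, statistic and p-values were not used, other than through the list a peak is on, and 0 columns held values per sample.

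Peak starts were converted, so that positions are given as 1-based mm10. Nearest starts came from protein-coding transcripts of the GENCODE M21 basic annotation, measured from the peak's centre. Classes followed the centre, with promoter meaning within 1 kb of any annotated start. Strings were searched as exact letters on both strands, and the search and assignment were tested on simulated data. Python 3.11.15 with numpy 2.4.6 and pandas 2.3.3 was used. Genes and lists were chosen with earlier results of these data known. Named were all 7 genes, each promoter peak, the highest peak of each gene and list, and the 5 highest peaks over all. Other positions and list genes were added after their values were seen. Sequences for paired promoters are the bases before the RefSeq start instead of the peak's centre. For each gene with 10 or more peaks, the 2 genes nearest in counts of opened and closed peaks, as log2(count + 1), were named. Some genes of the lists are not reported here by name.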

Additional observations from a re-analysis of the deposited data

How the results depend on the processing

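No paired analysis was possible because the lists hold no value per library, and leaving out a replicate could not be run for the same reason. A stricter limit on the authors' test was not run because the columns of their comparison were not used. Against 51 opened and 70 closed peaks, 29 closed peaks were left when a peak had to lie in the gene body or within 10 kb of it, and the opened share rose from 42.1% to 58.0%. That rule turned the direction of Runx2 (6 opened, 2 closed), Runx3 (0 and 1), Cbfb (3 and 2) and Cbfa2t3 (7 and 5), and left Cbfa2t2 at 2 and 2. A limit of 100 kb from the start left 38 closed peaks. Allowing start sites of any gene type, which gives distant peaks to noncoding genes, left 25 opened and 24 closed, and a mean normalized count of at least 20 left 30 and 37. The opened share was 24.4% without Runx1 and 56.5% without Runx1t1, so the share of the 7 genes together rests on these 2 genes. The family shares without these genes, 37.0% and 40%, were added after seeing the data. The promoter share of closed peaks went from 7.14% to 15.7% with a distance of 3 kb, where it was 17.3% over all closed peaks. With protein-coding starts only, the promoter share of opened peaks went from 15.7% to 9.80%, and that of closed peaks stayed at 7.14%. Runx1t1 had 0 opened and 14 closed peaks within 10 kb of its body, and 0 and 15 within 100 kb of a start. With start sites of any gene type Runx1 had 15 opened and 0 closed peaks, Runx2 2 and 1, Runx3 1 and 1, and Cbfb 1 and 0.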

Other observations

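Genes with the most similar numbers of opened and closed peaks were looked up for the 4 genes with 10 or more listed peaks. Nearest to Runx1 (32 and 11) were Tns1 (31 opened, 10 closed), an adaptor of focal adhesions, and Magi1 (29 and 11), a scaffold of cell junctions. Nearest to Runx1t1 (3 and 33) were Robo2 (3 and 32), a receptor of axon guidance, and Fam155a (3 and 28). Runx2 (5 and 14) had the same pair of numbers as 4 genes, among them Agpat4 and the Hedgehog effector Gli2, and Cbfa2t3 (4 and 8) the same as 15 genes, among them Aig1 and Cdh6. Likeness here is of counts only.

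A few listed peaks inside the bodies of the 7 genes were nearest to the start of another gene. They were left out of the counts by nearest start and entered only the counts under the 10 kb body rule. Inside Cbfa2t3 these were 2 opened peaks with counts of 139 and 78.9, nearest to Pabpn1l, inside Runx2 an opened peak of 31.7 nearest to Supt3, and inside Cbfb a closed peak of 17.1 nearest to D230025D16Rik.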
